A study of Mus musculus with 6 samples.

Results

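Laminin chain genes were followed in TIBx, a cultured mouse line labelled liver BNL 1ME A.7R.1 by cell type, a chemically transformed derivative of an embryonic liver line. The 9 genes described, Lama1, Lama2, Lama3, Lama4, Lama5, Lamb1, Lamb2, Lamb3 and Lamc1, are 9 of the 24054 genes in the table and were taken by name. The family itself was chosen on measured values, because the loss of Lama5 in this same comparison was already known, so the differences and calls of the 9 genes are a description and support nothing. Lamc3, another gamma chain gene, is given beside them because a laminin needs a gamma chain. Total RNA was sequenced from 3 libraries of genotype WT, the parental TIBx line, and 3 of genotype DNAJ-PKAc, the line TIBxDNAJ-PKAc, which the titles call an FLC cell line. DNAJ-PKAc names a fusion protein that joins part of DNAJB1, a co-chaperone, to the protein kinase A catalytic subunit, the lesion of fibrolamellar carcinoma. Both lines grew in the same serum-containing DMEM with added glutamine, pyruvate and nonessential amino acids. With 1 line per genotype, an effect of the fusion and a difference between the lines cannot be told apart. The labels do not say that replicates A, B and C were separate cultures. The p-values thus set the difference between the lines against the spread among the libraries of each line, a spread that may be technical. Where 3 values of a line stand in a row below, their order is replicate A, B, C.

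Laminins are the large cross-shaped glycoproteins on which basement membranes are built. An alpha, a beta and a gamma chain wind together into a coiled coil inside the cell. Paired beta and gamma chains are held back in the cell until an alpha chain joins them. The short arms link laminins into a sheet, and the globular end of the alpha chain binds integrins and dystroglycan on the cell. A laminin is named by the numbers of its chains, so that laminin-511 holds the alpha 5, beta 1 and gamma 1 chains, a common form in adult epithelial and vascular basement membranes.

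The starts of 2 of these genes are printed because Lama5 RNA was nearly lost in DNAJ-PKAc while the RNA of Lamb1, which supplies a partner chain in laminin-511, was not. Each run is the coding strand 5′ to 3′, from 250 bases before to 50 bases after an annotated start, credited to RefSeq on GRCm38.p6, the assembly of mm10. The genes can begin further upstream. The RefSeq gene span begins at 31265146 for Lamb1 and at 180225904 for Lama5, and GENCODE M21 begins Lamb1 at 31265234. Distances below are from the start used for each run, and some marked places fall after those RefSeq gene starts. Capitals mark TGACGT, the longer part of the cyclic AMP response element, and the GC box GGGCGG, each searched on both strands (ACGTCA and CCGCCC). The first run is chr2:180225810-180226109 (minus strand) and the second is chr12:31265043-31265342 (plus strand).
Lama5: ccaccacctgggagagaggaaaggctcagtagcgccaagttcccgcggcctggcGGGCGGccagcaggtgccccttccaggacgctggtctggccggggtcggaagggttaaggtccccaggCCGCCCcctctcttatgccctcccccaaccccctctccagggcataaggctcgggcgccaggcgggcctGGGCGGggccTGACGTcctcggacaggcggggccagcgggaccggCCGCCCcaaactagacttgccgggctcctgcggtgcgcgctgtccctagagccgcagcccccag
Lamb1: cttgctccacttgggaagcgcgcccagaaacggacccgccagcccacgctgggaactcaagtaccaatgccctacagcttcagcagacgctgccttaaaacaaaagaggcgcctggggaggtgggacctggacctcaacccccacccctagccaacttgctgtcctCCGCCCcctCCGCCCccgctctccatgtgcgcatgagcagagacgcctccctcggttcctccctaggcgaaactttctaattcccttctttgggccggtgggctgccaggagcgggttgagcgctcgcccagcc

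The Lama5 start held 1 TGACGT, beginning 49 bases before the start site, and 4 GC boxes, beginning 196, 128, 59 and 14 bases before it. No TGACGTCA, the full palindrome, was found there. The Lamb1 start held 0 TGACGT and 2 GC boxes, beginning 84 and 75 bases before the start. Among 32851 promoters of the same length, 7.51% held TGACGT, 1.79% held TGACGTCA and 35.7% held GGGCGG. Both starts lacked TATAAA, found in 13.6% of promoters on either strand, and CACGTG, found in 7.15%. CCAAT, found in 37.4%, had 1 match in Lamb1 and 0 in Lama5, and TGACG, found in 20.8%, had the 1 match in Lama5 that lies inside TGACGT. GC content was 72.7% for Lama5 and 63.7% for Lamb1. These matches describe letters in the reference and say nothing about binding.

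Facts of the libraries bear on the values that follow. Totals ran from 8095549 to 9969590 expected counts, and 1 CPM (a count relative to library size, scaled by TMM) equals 8.1 to 10.1 counts. Prkaca, the gene of the kinase part of the fusion, was at 63.6 to 87.6 CPM in WT and 95.7 to 131 CPM in DNAJ-PKAc. WT B stood apart by the nuclear RNA Malat1, at 10856 CPM against 1051 to 4796 CPM in the other libraries. DNAJ-PKAc C stood apart by the proliferation gene Mki67, at 36.2 CPM. Its sister libraries A and B were at 468 and 474 CPM, and WT at 107 to 155 CPM. Over all genes tested, its log2 CPM correlated with A and B at a Pearson r of 0.914 and 0.911. Between A and B that r was 0.993. Malat1 was at 4796 CPM in DNAJ-PKAc C, against 1051 and 1151 CPM in A and B. All 8 hepatocyte markers looked for (Alb, Ttr, Hnf4a, Apoa1, Apob, Serpina1a, Cyp2e1 and Tat) were listed at 0 in every library, and Epcam, Cdh1 and Krt19 were too. The 10 stellate cell and fibroblast markers summed to between 25243 and 26516 CPM in WT and between 16141 and 30060 CPM in DNAJ-PKAc. Vim, Col1a2 and Col3a1 led that sum, with means of 13137, 6801 and 4909 CPM in WT and 11910, 5948 and 2281 CPM in DNAJ-PKAc. In the same list Des and Lum stayed under 1 CPM in every library. Acta2 had a mean of 9.28 CPM in WT and 42.3 CPM in DNAJ-PKAc. The libraries thus held no read of a hepatocyte marker and many of some mesenchymal markers, not of all. The absence of hepatocyte markers goes against reading the label as hepatocytes. The 6 endothelial markers summed to at most 2.32 CPM, the 6 leukocyte markers measured to at most 4.45 CPM, and the 6 Schwann cell and muscle markers to at most 0.658 CPM. In bulk RNA, fewer cells of a kind and less RNA per cell cannot be told apart.

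Lama5, whose alpha 5 chain is found in basement membranes of most adult tissues, was the main alpha chain gene of the parental cells and was almost absent from DNAJ-PKAc. The parental libraries held 869, 2097 and 1058 Lama5 counts and those with the fusion 7, 7 and 13. On the CPM scale these were 95.2, 245 and 117, then 0.693, 0.864 and 1.58. Every DNAJ-PKAc library lay far below every WT library, and WT B was the highest of the 6. The means were 152 ± 80.8 and 1.05 ± 0.473 CPM (SD, n = 3), a log2 difference of -7.19 (SE 0.54), or 146-fold lower. Lama5 (chromosome 2, 180176373 to 180225859, minus strand, 79 exons and 3718 residues in GENCODE M21) was called lower, and its log2 difference ran from -7.60 to -6.71 over the 15 alternative settings. The 7 cholangiocyte and simple epithelium markers, of which Krt19, Epcam and Cdh1 were at 0, summed to between 28.6 and 64.1 CPM in WT and between 9.5 and 13.5 CPM in DNAJ-PKAc, and their part in the Lama5 difference was not tested.

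No gene next to Lama5 was called lower with it. The 5 nearest tested genes on each side, from Psma7 to Ogfr (chromosome 2, 180036367 to 180595837), had log2 differences between -0.73 (Ss18l1, edgeR adjusted p = 0.178) and 0.26 (Mrgbp, adjusted p = 0.561). None of the 10 passed the threshold, and 1, Ss18l1, was lower and 0 were higher at an unadjusted p under 0.05, where 9.72% of all genes were lower and 11.8% higher. Adrm1, a proteasome receptor gene that ends just before Lama5, had parental values of 57.2, 64.5 and 63.1 CPM, against 78.6, 70.6 and 58.7 CPM with the fusion. Rps21, a ribosomal protein gene on the other side, had a log2 difference of 0.02 (SE 0.18). These neighbours were looked at after the Lama5 values were known.

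**Figure D1:**
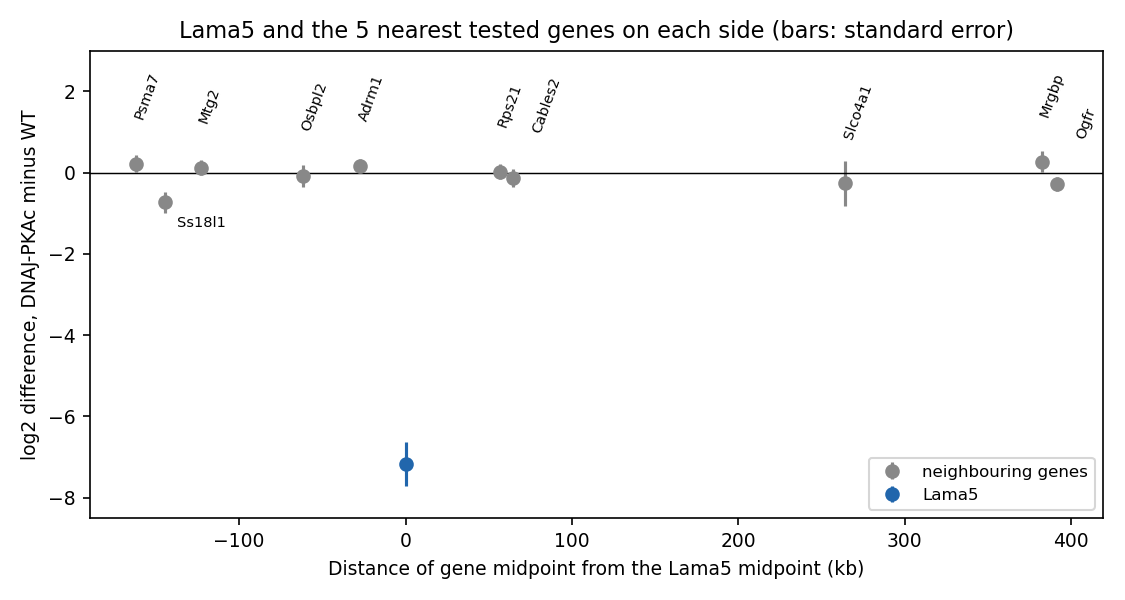
Log2 difference, DNAJ-PKAc minus WT, of Lama5 and of the 5 nearest tested genes on each side, against the distance between gene midpoints in kb; bars are standard errors of the fit. The neighbours sit between -0.73 and 0.26 and Lama5 at -7.19.

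Lama3, whose alpha 3 chain anchors skin and other epithelia to their basement membranes, was the other alpha chain gene above 1 CPM, and the DNAJ-PKAc libraries differed from each other in it. Lama3 had parental values of 8.33, 14.0 and 16.2 CPM, against 3.96, 3.21 and 20.1 CPM with the fusion. DNAJ-PKAc A and B lay below all WT libraries and DNAJ-PKAc C above them. The log2 difference over all libraries was -0.50 (SE 0.70) and was not called, whereas without DNAJ-PKAc C it was -1.83 (SE 0.34) and was called. Lama3 (chromosome 18, 12333819 to 12583013) makes a long and a short transcript, and counts per gene do not separate them.

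The remaining alpha chain genes were near or at 0. Lama1, the alpha chain of embryonic basement membranes, and Lama4, the short alpha chain of vessel walls and mesenchyme, were listed at 0 counts in all 6 libraries, which allows up to 0.297 to 0.370 CPM per library by counting error alone (3 counts). Lama2, the alpha chain of muscle and peripheral nerve, had 2, 6 and 1 counts in WT and 1, 1 and 0 counts in DNAJ-PKAc. These 3 genes did not pass the filter on low counts and were not tested in the main fit. Lama2, tested with no filter, was not called.

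Lamb1, whose beta 1 chain is part of most laminins, was the most abundant chain gene of the family. It had parental values of 545, 832 and 469 CPM, against 365, 348 and 617 CPM with the fusion. WT B was again the highest library, DNAJ-PKAc C overlapped the WT range, and the log2 difference of -0.47 (SE 0.31) was not called. Lamb1 lies on chromosome 12 (31265234 to 31329644, plus strand).

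Lamb2, whose beta 2 chain serves the kidney filter and the neuromuscular junction, showed the same split among DNAJ-PKAc libraries as Lama3. It had parental values of 60.9, 85.0 and 69.2 CPM, against 38.0, 33.1 and 115 CPM with the fusion. DNAJ-PKAc C was the highest and DNAJ-PKAc A and B the lowest of the 6 libraries. The log2 difference was -0.21 (SE 0.47), was not called, and lay at 0.05 without DNAJ-PKAc A and 0.10 without DNAJ-PKAc B. Without DNAJ-PKAc C it was -1.01 (SE 0.19) and was called. That library is the one low in Mki67 that also differed from A and B over all genes tested. The part of its proliferation state, or of its other differences, in the Lama3 and Lamb2 values was not tested. Lamb2 lies on chromosome 9 (108479736 to 108490530).

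Lamb3, whose beta 3 chain occurs in the basement membrane of the skin, had 14, 13 and 7 counts in WT and 4, 0 and 4 counts in DNAJ-PKAc. All DNAJ-PKAc libraries were below all WT libraries. At 34 counts against 8 in all, the gene did not pass the filter and was not tested in the main fit. Lamb3 was not called in any alternative that tested it. Lamb3 (chromosome 1, 193207699 to 193343878) overlaps other genes in GENCODE M21, including Hsd11b1 on the opposite strand, and no source used here gives the strand setting with which reads were counted, so its few counts are uncertain.

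Lamc1, whose gamma 1 chain is shared by nearly all laminins, stayed abundant in both lines. It had parental values of 428, 837 and 314 CPM, against 297, 298 and 326 CPM with the fusion. The DNAJ-PKAc libraries lay close together, 1 of them above WT C, while WT B lay well above WT A and WT C. The log2 difference was -0.78 (SE 0.35), was not called, and was -0.32 (SE 0.17) without WT B. Malat1 in WT B was given above, and the part of RNA makeup in the high laminin values of that library was not tested.

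Lamc3, a gamma chain gene of the nervous system, had 4, 10 and 0 counts in WT and 19, 14 and 1 counts in DNAJ-PKAc. It was not tested in the main fit. Among the alternatives that did test it, it was called only without WT B and DNAJ-PKAc C together. There it was higher, on few counts (log2 2.92, SE 0.71, edgeR adjusted p = 0.00305).

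**Figure D2:**
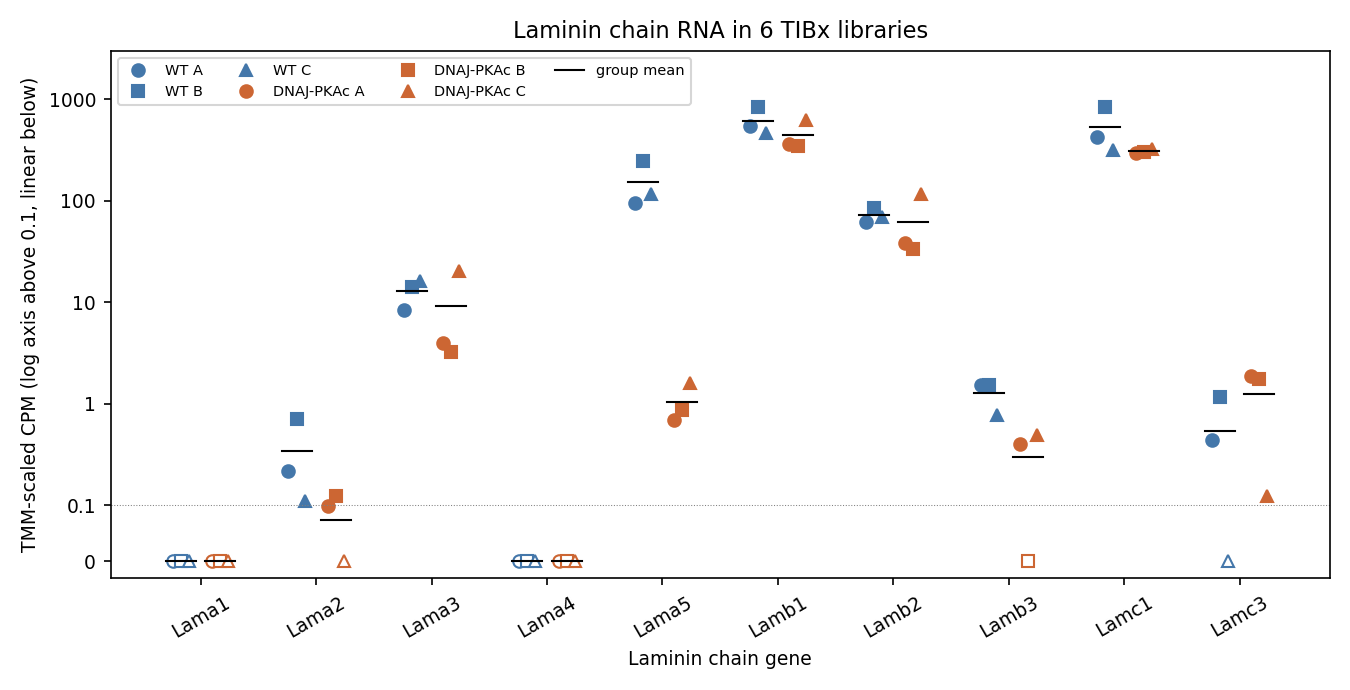
TMM-scaled CPM of the 9 laminin chain genes and of Lamc3 in each library (points; open points are 0 counts) with group means as lines, on an axis that is logarithmic above 0.1 CPM and linear below. Lama5 falls from 95.2 to 245 CPM in WT to 0.693 to 1.58 CPM in DNAJ-PKAc, while Lamb1 and Lamc1 stay at 297 CPM or more in all 6 libraries.

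Of the 9 chain genes 5 were tested, and among these 1 was called lower and 0 were called higher (edgeR, adjusted p under 0.05 by Benjamini-Hochberg over 10975 genes). No member was higher at an unadjusted p under 0.05 or by DESeq2 or limma-voom. Over all genes tested 2.14% were called lower and 1.37% higher. DESeq2 called 5.7% lower and 3.17% higher, and limma-voom 2.27% lower and 1.29% higher. The groups did not overlap for 1 of the 5 genes, Lama5, and for 28.9% of all genes tested. The median log2 difference was -0.50 over the 5 genes and 0.05 over all genes. Without DNAJ-PKAc C, 3 of these 5 were called lower (Lama3, Lama5 and Lamb2), where 11.0% of all genes were, with 14.3% higher. Lamb3 was also tested in that fit and was not called (log2 -2.48). Without WT B and DNAJ-PKAc C together, a choice made after the data were seen, all 5 were called lower. There 24.5% of all genes were lower and 23.9% higher, and Lamc3, not among the 9, was called higher.

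Levels of different chains were compared per length, as CPM per kb of the longest annotated transcript. The beta chains summed to 119 ± 35.0 CPM per kb in WT and 87.7 ± 34.2 in DNAJ-PKAc (SD, n = 3). Lamc1 alone was at 69.0 ± 36.1 and 40.3 ± 2.12 CPM per kb (SD, n = 3). The alpha chains summed to 9.17, 22.9 and 11.8 CPM per kb in the parental line and to 0.446, 0.393 and 2.05 with the fusion. In all 6 libraries the alpha chain sum thus lay below Lamc1 alone and below the beta chain sum. Lama5 was 19.8 ± 5.0% of the Lamc1 level in WT and 0.225 ± 0.0889% in DNAJ-PKAc (SD, n = 3). Lama3 was 1.41%, 1.21% and 3.74% of it in the parental line and 0.962%, 0.778% and 4.46% with the fusion, with DNAJ-PKAc A and B below and C above every WT library.

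Lama5 and Lama3 changed rank among the alpha chains, and the order of the beta chains stayed Lamb1, Lamb2, Lamb3. Lama5 made up 91.1%, 93.9% and 86.9% of the alpha chain level per kb in the parental line and 13.6%, 19.3% and 6.80% with the fusion. Lama3 took 9.15 ± 3.65% in WT and 84.9 ± 7.92% in DNAJ-PKAc (SD, n = 3), a larger share of a smaller total, its own level being 0.790, 1.33 and 1.54 CPM per kb in the parental line and 0.375, 0.304 and 1.91 with the fusion. Lamb1 was 88.8 ± 1.90% and 88.4 ± 3.97% of the beta level, with Lamb2 nearly all of the rest. Ordered by level per kb, the WT means of the chains given here ran Lamb1, Lamc1, Lama5, Lamb2, Lama3, Lamb3, Lamc3 and Lama2. In that order the library ranges of Lamb1 and Lamc1, of Lama5 and Lamb2, of Lamb3 and Lamc3, and of Lamc3 and Lama2 overlapped. In DNAJ-PKAc the means ran Lamb1, Lamc1, Lamb2, Lama3, Lamc3, Lama5, Lamb3 and Lama2, with Lama5 behind Lama3. There Lamb1, Lamc1, Lamb2 and Lama3 were apart from each other, and each later neighbour in the order overlapped the one before it.

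**Figure D3:**
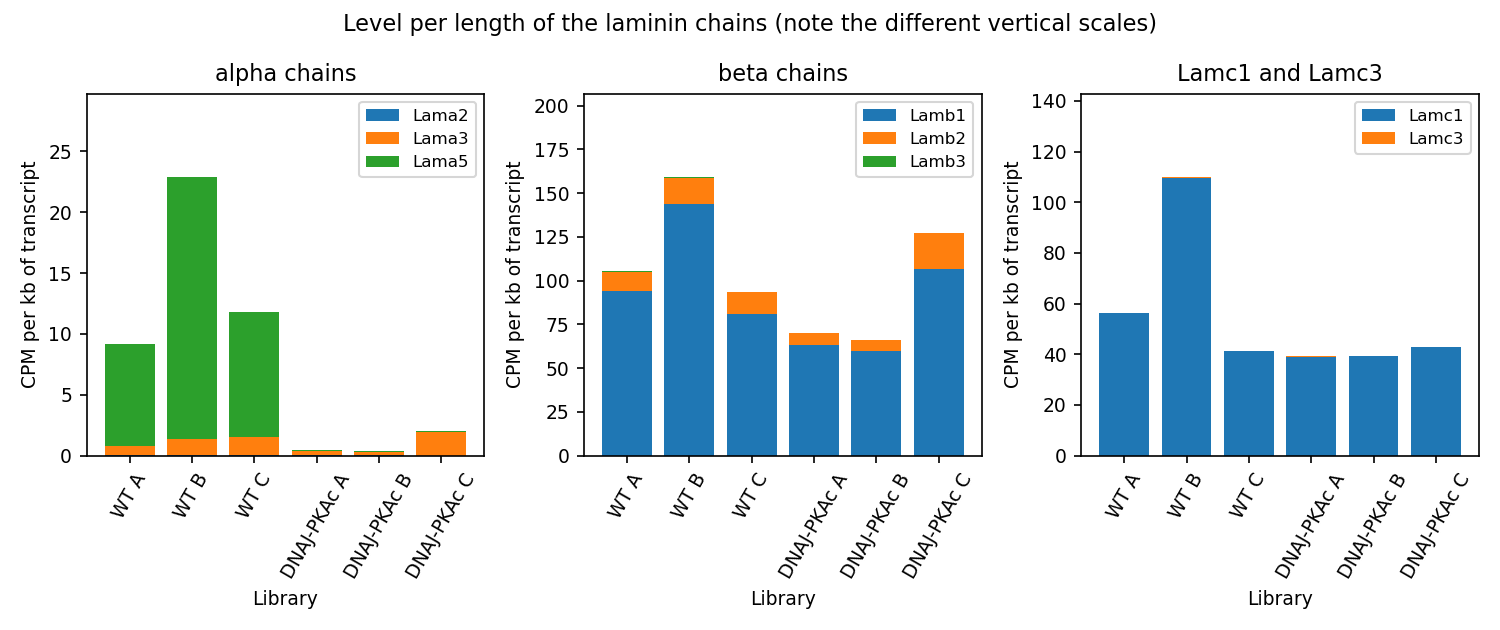
Stacked CPM per kb of transcript for the alpha chains, the beta chains, and Lamc1 with Lamc3, in each library, each panel with its own vertical scale starting at 0. The alpha bars fall from 9.17 to 22.9 in WT to 0.393 to 2.05 in DNAJ-PKAc and turn from Lama5 to Lama3, while Lamb1 and Lamc1 fill the other panels in every library.

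The chains present limit which laminins can form, as far as RNA shows it. Counting a chain as present at 1 CPM or more in at least 2 of the 3 libraries of a group, 4 of the 10 documented trimers that hold the gamma 1 chain were allowed in WT, laminin-311, laminin-321, laminin-511 and laminin-521. In DNAJ-PKAc 2 were allowed, laminin-311 and laminin-321. Laminin-511 and laminin-521 dropped out because Lama5 reached 1 CPM in 1 of 3 libraries. At 5 CPM the same 4 were allowed in WT and 0 were allowed in DNAJ-PKAc, since Lama3 was at 3.96 and 3.21 CPM in A and B. Protein was not measured.

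Other components of the basement membrane showed 1 call, lower, among 13 tested of 28 listed genes, beside 2.14% of all genes called lower. Ntn4, encoding netrin-4, which binds laminin gamma chains and loosens laminin networks, fell from 2.5 ± 0.433 to 0.565 ± 0.182 CPM (SD, n = 3), a log2 difference of -2.12 (SE 0.40; edgeR adjusted p = 0.0365). The gene had only 27, 21 and 19 counts in WT and 6, 3 and 6 counts in DNAJ-PKAc, and passed the filter on low counts through its WT values. Its call was lost without any single library other than DNAJ-PKAc C (edgeR adjusted p of 0.0960 to 0.164) and with the replicate letter as a block (0.107). No gene of the list was called higher by edgeR, DESeq2 or limma-voom. At an unadjusted p under 0.05, 2 of the 13 were higher and 3 lower, beside 11.8% and 9.72% of all genes. Col4a5, a type IV collagen chain, had parental values of 177, 181 and 206 CPM, against 28.2, 28.4 and 95 CPM with the fusion, lower in every DNAJ-PKAc library (log2 -1.90, SE 0.49, edgeR adjusted p = 0.0931). Col4a5 passed without DNAJ-PKAc C (log2 -2.73, edgeR adjusted p = 0.000448) and in DESeq2 (0.000935). Col4a1, a chain of the common type IV collagen, was at 1535 ± 151 and 1708 ± 428 CPM (edgeR adjusted p = 0.699), and Col18a1, whose end fragment is endostatin, at 4837 ± 536 and 2950 ± 1380 CPM (SD, n = 3; edgeR adjusted p = 0.249, and 0.00492 without DNAJ-PKAc C). The median log2 difference of the 13 genes was -0.41.

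Among laminin receptors 0 of 13 tested genes were called by edgeR in either direction, with 2 higher and 4 lower at an unadjusted p under 0.05, beside 11.8% and 9.72% of all genes. DESeq2 called 1 higher and 2 lower, beside 3.17% and 5.7% of all genes, and limma-voom 0. Itgb4, the integrin beta 4 chain that pairs with alpha 6 in hemidesmosomes and binds laminins, had parental values of 25.1, 48.5 and 35.1 CPM, against 7.32, 9.02 and 17.1 CPM with the fusion. Every DNAJ-PKAc library was below every WT library, with a log2 difference of -1.71 (SE 0.38, edgeR adjusted p = 0.0649), which passed without DNAJ-PKAc C (0.00492), with upper-quartile scaling (0.0480) and in DESeq2 (0.000456). Sdc1, the heparan sulphate proteoglycan syndecan-1, was at 100.5 ± 20.1 CPM in WT and 180 ± 32.6 CPM in DNAJ-PKAc (SD, n = 3; log2 0.84, edgeR adjusted p = 0.0871, passing in DESeq2 at 0.0187 and without DNAJ-PKAc C at 0.0366). Itgb1, the common partner of laminin-binding integrin alpha chains, differed by a log2 of 0.02 (SE 0.18, edgeR adjusted p = 0.955). Rpsa, a ribosomal protein also known as a laminin receptor, differed by -0.17 (adjusted p = 0.615), and its many pseudogenes make its counts uncertain.

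Of the genes for the sugar chain on dystroglycan that binds laminin, 0 of 15 tested were called by edgeR, DESeq2 or limma-voom and 1 was higher and 0 lower at an unadjusted p under 0.05, beside 11.8% and 9.72% of all genes. Pomgnt1 was at log2 -0.07 (SE 0.14, adjusted p = 0.810), B3galnt2 at 0.47 (0.224, and 0.0451 without DNAJ-PKAc C) and Dpm2 at 0.48 (0.236). The median log2 difference of the list was -0.07.

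The proteases listed, mostly as acting on laminins or activating other proteases, moved in both directions. Whether Adamts1 acts on laminins is not shown here. Among 8 tested, 3 were called lower and 1 higher, beside 2.14% and 1.37% of all genes. At an unadjusted p under 0.05, 3 were lower and 2 higher, beside 9.72% and 11.8% of all genes. The groups did not overlap for 5 of the 8, and for 28.9% of all genes tested. Plg, the gene of plasminogen, was at 0 counts in every library. Mmp9, gelatinase B, fell from 122 ± 13 to 38.8 ± 3.35 CPM (SD, n = 3), a log2 difference of -1.66 (SE 0.16; edgeR adjusted p = 0.00458). That call was kept under all 15 alternatives. Adamts1, a secreted metalloprotease, fell from 264 ± 12.5 to 99.3 ± 18.1 CPM (SD, n = 3), a log2 difference of -1.41 (SE 0.18; edgeR adjusted p = 0.0102), and its call was lost on omitting any library other than WT B and DNAJ-PKAc C (at most 0.0670). The other 2 calls were named after their values were seen. Plau, the urokinase plasminogen activator, fell 2.69-fold (edgeR adjusted p = 0.0383), and Mmp3, stromelysin-1, rose 2.23-fold (0.0462). Both lost the call without any single library other than DNAJ-PKAc C (at most 0.140 for Plau and 0.183 for Mmp3), and Mmp3 also with RLE (0.0538) or upper-quartile factors (0.0555) and the replicate block (0.0753). Mmp2 stood at 341, 335 and 1101 CPM in the fusion line against 174 to 327 CPM in the parental (log2 1.33, SE 0.52, edgeR adjusted p = 0.205, and log2 0.53 without DNAJ-PKAc C), and the membrane protease gene Mmp14 at log2 -0.50 (0.322, and 0.0212 without DNAJ-PKAc C).

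**Figure D4:**
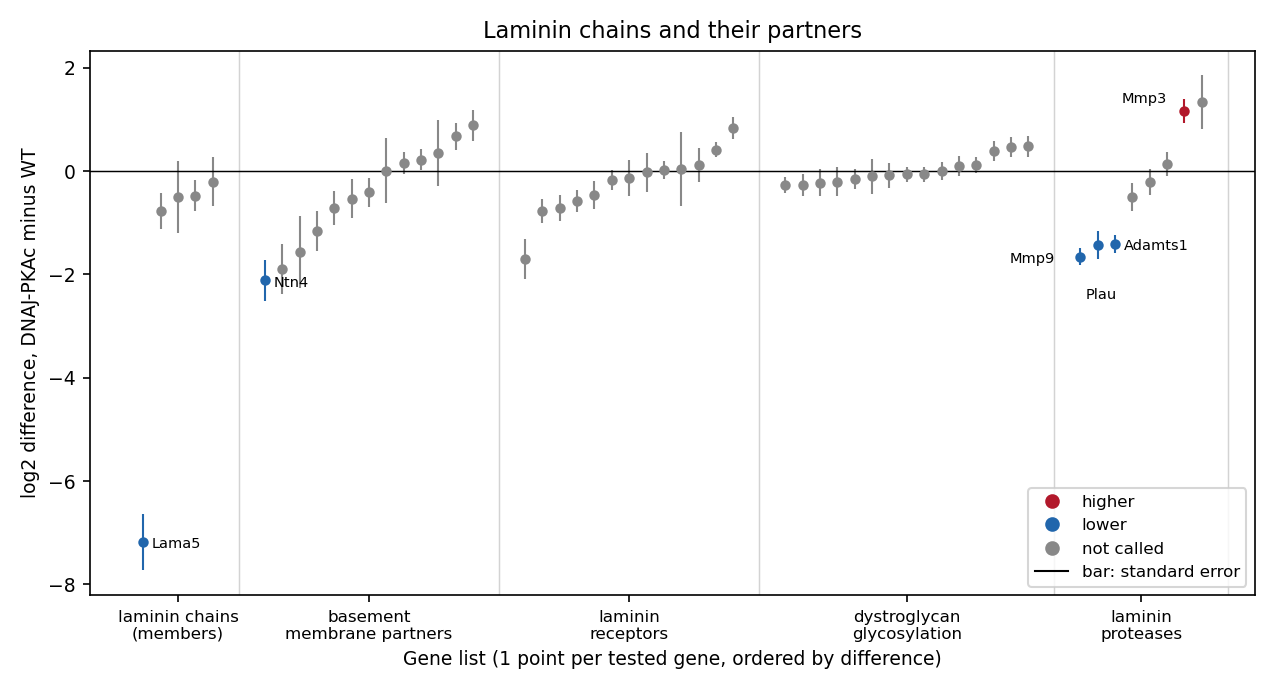
Log2 difference, DNAJ-PKAc minus WT, of each tested gene in the laminin family and 4 partner lists, ordered within each list; bars are standard errors and colours the edgeR call. Lama5 at -7.19 lies apart from every other gene drawn, and the called genes Ntn4, Mmp9, Plau and Adamts1 lie between -2.12 and -1.41.

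The genes whose level ran most like that of Lama5 over the 6 libraries (Pearson r of log2 CPM, genes with a group mean reaching 5 CPM) were Mtss1, Mgat4a, Rev1, Sema3d and Kctd11, with r from 0.997 to 0.999. With 6 libraries of which 3 are near 0 for Lama5, a steady difference between the lines is enough for a high r. Of 9689 genes compared, 461 had an r over 0.9. Mtss1, an actin and membrane scaffold gene, had parental values of 33.1, 51.3 and 37.4 CPM, against 0.990, 1.23 and 1.71 CPM with the fusion. Like Lama5, it was highest in WT B among WT and in C among DNAJ-PKAc. Sema3d, a secreted guidance factor gene, was at 6.90 to 8.75 CPM in WT and 0.0990 to 0.244 CPM in DNAJ-PKAc. Mgat4a, an N-glycan branching enzyme gene, was at 37.6 to 54.8 CPM and 5.56 to 7.56 CPM, and Kctd11 at 27.6 to 31.4 CPM and 11.2 to 12.2 CPM. Rev1, a DNA polymerase gene, ran in parallel with a log2 difference of -0.20 (edgeR adjusted p = 0.428), a small difference beside that of Lama5. The call of Kctd11 (log2 -1.37, edgeR adjusted p = 0.00990) was lost without WT C, DNAJ-PKAc A or DNAJ-PKAc B (at most 0.0639).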

How the data were processed

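RNA of 3 WT and 3 DNAJ-PKAc libraries was measured with a TruSeq Stranded kit, per the labels' protocols. What the authors deposited is 1 table of each gene's expected counts, without normalization, per the file headers and column totals. The submitters' processing notes name STAR (2.5.2b), RSEM (1.3.0) and mm10, with no role for each. Annotation and strand setting are not stated there.

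After rounding to integers, filterByExpr (minimum count 10) chose the genes and TMM the scaling. The test was edgeR's quasi-likelihood F test (edgeR 4.0.16, R 4.3.3, robust, group alone), with Benjamini-Hochberg adjustment over every tested gene, and was checked on simulated counts. SE is the size of the log2 difference over the root of F. Alternatives changed the factors (RLE, upper quartile), the filter (none, stricter), the tool (DESeq2 1.42.0, limma-voom with limma 3.58.1), the robust option, the threshold (0.01) and the replicates (a block by letter, or 1 library omitted). Omitting WT B together with DNAJ-PKAc C was added after seeing the data.

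Lengths and 1-based coordinates came from GENCODE M21 on GRCm38, the assembly of mm10, and neighbours from RefSeq. Members, lists and tests were chosen with earlier results of these data known. Named were all members, Lamc3, in each partner list the 2 tested genes of smallest adjusted p and the 2 of highest mean CPM, and the 5 genes most like Lama5, and some genes under this rule are not reported here. No 2 replicates agreed within sampling noise (chi-square per degree of freedom of at least 3.67), so all 6 were counted as libraries. That scatter cannot show that they were separate cultures. DNAJ-PKAc A and B were the closest pair, at 3.67, against 94.4 and 87.7 for A and B with C.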

Additional observations from a re-analysis of the deposited data

How the results depend on the processing

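The log2 difference of Lama5 ran from -7.60 to -6.71 over 15 alternatives, a description, since Lama5 was chosen on this comparison. The number of members called lower was 1 to 3 when 1 library was left out, with 3 without DNAJ-PKAc C. It was 5 on omitting DNAJ-PKAc C and WT B as a pair, a choice made after seeing the data.

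For the other counts the causes were not tested. Basement membrane partners called lower numbered 3 with DESeq2 and 0 with the replicate block or a threshold of 0.01. They numbered 0 to 5 with 1 library left out. Without that pair 7 were lower and 2 higher, Lamc3 among the higher. Receptors called lower numbered 1 with upper-quartile factors, 2 with DESeq2, 0 to 5 with 1 library left out and 5 without the pair, and those higher 1, 0 to 1 and 4 (DESeq2, 1 left out, the pair). Dystroglycan glycosylation genes called higher ran from 0 to 1 with 1 library left out, and without the pair 2 were higher and 2 lower. Proteases called higher numbered 0 with RLE or upper-quartile factors, the replicate block or 0.01, and 0 to 1 with 1 left out. Those lower numbered 1 at 0.01, 1 to 4 with 1 left out and 5 without the pair. Of all genes, 23.9% were called higher and 24.5% lower without the pair, and 14.3% and 11.0% without DNAJ-PKAc C. The shares were 3.17% and 5.7% with DESeq2 and 1.27% and 2.51% with RLE factors. They were 1.04% and 2.69% with upper-quartile factors and 0.510% and 1.3% with the block. The share of all genes at the 0.01 threshold is not given, so the counts at 0.01 lack that background. With any other 1 library left out at most 0.243% were higher and 0.759% lower. Same-lettered libraries did not deviate together (correlations 0.21, -0.20 and 0.03 for A, B and C), so the letters are not taken as pairs.

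With mean instead of longest transcript lengths the Lama5 share of alpha chain level was 96.2% in WT and 27.8% in DNAJ-PKAc, and the Lama3 share 3.67% and 69.4%. At 5 CPM 0 trimers were allowed in DNAJ-PKAc. At about 8 to 10 counts per CPM, the DNAJ-PKAc values of Lama5 and Ntn4, and all values of Lama2, Lamb3 and Lamc3, rest on under 20 counts per library.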

Other observations

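Lama5 was not alone in its high value in WT B. Hspg2, encoding perlecan, the heparan sulphate proteoglycan of basement membranes, had parental values of 348, 1629 and 396 CPM, against 180, 163 and 463 CPM with the fusion (log2 -1.56, SE 0.70, edgeR adjusted p = 0.247), with a log2 difference of -0.52 without WT B and -2.20 without DNAJ-PKAc C. Agrn, encoding agrin, which binds laminin and dystroglycan, had parental values of 414, 894 and 415 CPM, against 210, 193 and 365 CPM with the fusion (log2 -1.17, SE 0.39, adjusted p = 0.162), and passed in DESeq2 (0.0298) and without DNAJ-PKAc C (0.0359). Both were named after their values were seen. In both, as in Lama5, Lamb1 and Lamc1, WT B was the highest of the WT libraries and DNAJ-PKAc C the highest of its group. The part of the RNA makeup of WT B in these values was not tested.

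Nid1, encoding nidogen-1, which ties laminin gamma 1 chains to type IV collagen, had parental values of 88.2, 149 and 112 CPM, against 172, 172 and 300.01 CPM with the fusion (log2 0.89, SE 0.29, edgeR adjusted p = 0.161), higher in 3 of 3 DNAJ-PKAc libraries than in any WT library. It was also named after its values were seen.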
